A study of Mus musculus with 2 samples.

Results

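Histone genes were examined in poly(A) RNA of mouse embryonic stem cells, and 63 of the 15127 protein-coding genes in the table of counts were histone genes. They were chosen by gene symbol (the H1, H2A, H2B, H3, H4 and macroH2A names) with Cenpa added. No measured value was used beyond being listed, for which the smallest count was 1. Of 103 annotated histone genes 40 were not listed. The 63 genes fell into 11 variants, whose transcripts end in a poly(A) tail, 49 replication-type genes and 3 genes typical of germ cells. The cells were pSM44, a female line of mixed 129 and castaneus parentage, in which doxycycline switches on the non-coding RNA Xist from its own locus on the 129 allele. All were grown in serum-free 2i/LIF medium and given doxycycline at 2 μg/mL for 24 h, and 2 libraries formed this 1 group. The table held 1 column with a total of 10017978 counts, so each gene had 1 value, no replicate error could be computed and no comparison with untreated cells was made.

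Histones are the proteins around which DNA is wound. A nucleosome holds H2A, H2B, H3 and H4, and H1 binds the linker DNA between nucleosomes. Most histone protein is made in S phase from replication-type genes, which lie in clusters and lack introns, and whose mRNAs end in a conserved stem-loop in place of a poly(A) tail. The stem-loop binding protein SLBP and the U7 snRNP direct that end. Most variant genes lie alone, are made through the cell cycle and give polyadenylated mRNAs, and their proteins replace the replication-type ones at particular sites. H2ax is a known exception, since its transcript can end either at a stem-loop or at a poly(A) tail.

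The stem-loop is shown first because most replication-type genes had it and most genes of the other classes did not. A search of the 120 bases after the stop codon in annotated transcripts (GENCODE M21, GRCm38) found its 16-base consensus, on the sense strand, in 45 of 64 annotated replication-type genes. Of the 19 genes of this type without a match, 15 had fewer than 60 annotated bases after the stop codon. Among the 11 variants, H2ax alone had a match. In the germ-cell class 2 of 28 annotated genes had one, H2bfm and H1f6. Among the 21848 protein-coding genes that are not histone genes 3 had one, or 0.0137%. An AATAAA or ATTAAA poly(A) signal in the last 50 bases of an annotated transcript was present in all 11 variants, in 16 of the 64 replication-type genes (25.0%) and in 80.8% of the genes that are not histone genes. The sequences below are the stem-loops of H2ax and of the highest listed replication-type gene with a match in each family, with the 16-base match in capitals and 5 flanking bases on each side in lower case. They lie at chr9:44335235-44335260 (plus strand) for H2ax, chr13:23739507-23739532 (plus) for H1f2, chr13:23683472-23683497 (minus) for H2ac6, chr13:23571838-23571863 (plus) for H2bc8, chr13:23561898-23561923 (minus) for H3c6 and chr13:23581945-23581970 (plus) for H4c4.
H2ax: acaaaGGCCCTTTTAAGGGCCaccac
H1f2: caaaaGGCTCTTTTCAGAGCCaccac
H2ac6: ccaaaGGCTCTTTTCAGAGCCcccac
H2bc8: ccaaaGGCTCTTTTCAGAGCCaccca
H3c6: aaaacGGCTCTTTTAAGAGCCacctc
H4c4: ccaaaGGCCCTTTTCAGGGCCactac
The form of H1f2, H2ac6 and H2bc8 was shared by 27 of the annotated histone genes with a match, and the form of H4c4 by 7, all of them H4 genes. The form of H2ax was found in no other annotated histone gene.

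Histone variants had many counts in the poly(A) RNA and replication-type histone genes had few, except for linker histone H1, where both classes were low. Of the 64 annotated replication-type genes 15 were not listed. In 30 of the 64, fewer than 50% of the 90-base stretches occurred in no other annotated gene. How reads with several alignments were counted was not given, so few counts were not read as absence from the RNA. The 11 variants held 28845 counts, or 0.288% of the total (exact Clopper-Pearson 95% interval 0.285 to 0.291). The 49 listed replication-type genes held 574 counts, or 0.00573% (0.00527 to 0.00622). The summed variant counts were 50.3 times the replication-type sum (exact conditional binomial 95% interval 46.3 to 54.7, counting error only). Per kilobase of annotated exon, which allows for the shorter replication-type transcripts, the ratio of the sums was 19.0. All 11 variants were at 1 CPM (the count per 1000000 counts of the total) or more, which took 11 counts. Of the 64 annotated replication-type genes 17 were, or 17 of the 49 listed. Over all annotated protein-coding genes that share was 55.1%, and over those without an intron, as most replication-type genes are, it was 16.5%. The replication-type share lay above the second of these and below the first. With at most 10% of exonic bases under another gene, 14 of 42 replication-type genes were at CPM 1 or more, against 57.9% of all such genes.

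By point value the classes met at a single replication-type gene. Of the 11 variants, 10 had more counts than the highest replication-type gene, H1f2 with 118, and the other variant was H1f10 with 96. Per kilobase of exon H1f2 stood at 75.6 counts, between H1f10 at 78.9 and H1f0 at 67.2. H4c6, at 58.8 from 23 counts (14.6 to 34.5), lay below both variants by less than its counting error. All 11 variants lay above the median of 37.9 counts per kilobase over all listed genes, and 3 of the 49 replication-type genes did. The median variant had a CPM of 160, the median listed replication-type gene 0.699 and the median of all listed genes was 18.3. On the log2(CPM + 1) scale the variant median lay 6.57 above the replication-type median, and 6.85 above it with genes not listed set to 0.

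**Figure D1:**
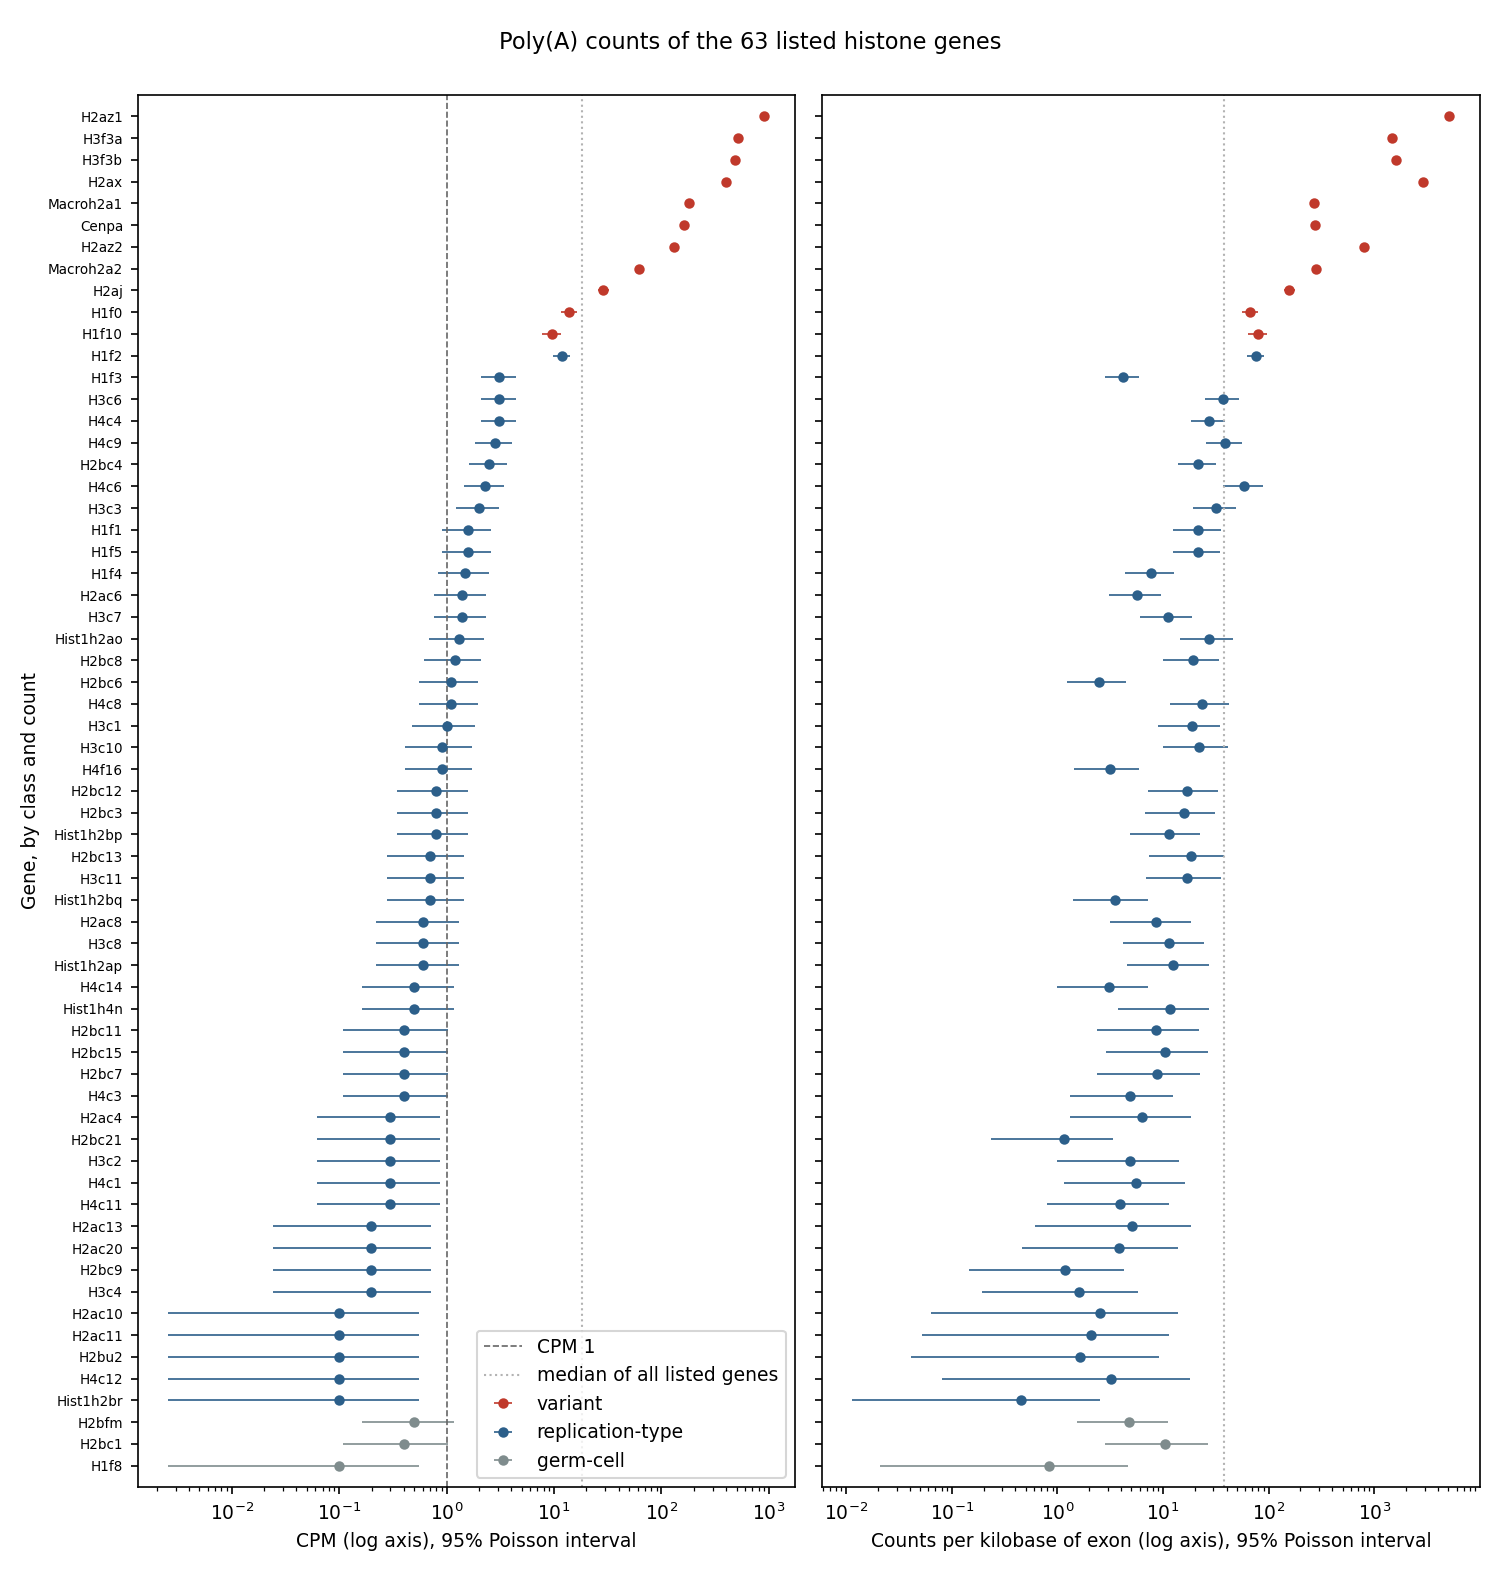
CPM (left) and counts per kilobase of exon (right) of the 63 listed histone genes, on log axes, with 95% Poisson intervals. Variants, replication-type and germ-cell genes are coloured separately, the dashed line marks CPM 1 and the dotted lines mark the medians over all listed genes. By point value, H1f2 is the one replication-type gene above the lowest variant in each panel.

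H2A.Z and H3.3, which replace H2A and H3 at promoters, enhancers and transcribed genes, gave the highest variant counts. H2az1 (chromosome 3, 137864487 to 137866922, GRCm38), the main gene for H2A.Z, had 9033 counts (95% Poisson interval 8848 to 9221). That was 31.3% of all variant counts and 5086 counts per kilobase of exon, above 99.5% of the matched genes on that scale. H2az2, which encodes a closely related H2A.Z protein from another chromosome, had 1306 counts (1236 to 1379), or 799.8 per kilobase. Per kilobase H2az1 was 6.36 times H2az2 (6.0004 to 6.74). Of the 90-base stretches of H2az1 transcripts, 73.5% occurred in no other annotated gene, and most of the rest lay in Tmcc1 transcripts, while all those of H2az2 were unique.

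H3f3a (chromosome 1, 180800832 to 180813943) and H3f3b (chromosome 11, 116021912 to 116027962) encode the same H3.3 protein from different DNA. H3f3a had 5119 counts (4980 to 5261) and H3f3b 4813 (4678 to 4951). Per kilobase of exon H3f3a was at 1461 and H3f3b at 1617, a ratio of 0.903 (0.868 to 0.940). The order of the genes rested on the length used, since per kilobase of the median annotated transcript with a complete coding sequence the ratio was 2.70 (2.59 to 2.81). A 48-base stretch of the coding sequence, bases 235 to 282 from the start codon, is shown for both genes beside an H3.1 gene (H3c1) and an H3.2 gene (H3c6). It holds some of the codons in which H3.3 differs from replication-type H3, and capitals mark bases that differ from H3f3a. The stretches lie at chr1:180810117-180810164, chr11:116023625-116023672, chr13:23762072-23762119 and chr13:23562084-23562131, all on the minus strand.
H3f3a: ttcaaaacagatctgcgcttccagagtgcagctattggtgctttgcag
H3f3b: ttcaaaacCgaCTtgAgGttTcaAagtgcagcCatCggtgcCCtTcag
H3c1: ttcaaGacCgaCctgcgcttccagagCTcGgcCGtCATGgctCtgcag
H3c6: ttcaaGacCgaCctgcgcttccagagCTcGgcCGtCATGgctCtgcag
H3f3b differed from H3f3a at 12 of these 48 bases and each replication-type gene at 13. Over the whole coding sequence of 411 bases, H3f3a and H3f3b differed at 95 bases and shared no identical run longer than 23. H3c1 and H3c6 differed at 13 bases and shared a run of 134, which is longer than the 90 cycles of the first read. The H3.3 genes thus shared no run as long as that read in their coding sequence, whereas H3c1 and H3c6 did. Over whole transcripts, 78.3% of the 90-base stretches of H3f3a were unique and 14.9% were shared with the non-coding gene Gm17275. For H3f3b 97.7% were unique. Of the exonic bases of H3f3a, 22.8% lay under another gene, and of those of H3f3b none did.

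H2ax, whose protein is phosphorylated around DNA breaks, was the variant with the second highest level per kilobase of exon, after H2az1. This rank rested on the length used. Per kilobase of the median complete transcript H3f3a, at 5765, stood above H2ax at 2904, and by count both H3.3 genes did. H2ax had 4019 counts (3896 to 4145) over 1384 bases of a single exon (chromosome 9, 44334694 to 44336077), or 2904 per kilobase. Its annotated transcript runs 822 bases beyond the stem-loop shown above and ends with a poly(A) signal. Per kilobase H2ax was 38.4 times H1f2 (32.0 to 46.5), whose annotated transcript also runs on beyond a stem-loop, by 840 bases, to a poly(A) signal. Counted with the replication-type genes, which it resembles in having a stem-loop and no intron, H2ax would lower the variant to replication-type ratio from 50.3 to 5.41.

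The other H2A variants were lower. Macroh2a1, whose large C-terminal domain is enriched on silent chromatin and on the inactive X chromosome, had 1811 counts (1729 to 1896), and Macroh2a2 had 616 (568 to 667). Per kilobase of exon they were at 266 and 283, a ratio of 0.939 with an interval of 0.857 to 1.03 that includes 1. Per kilobase of the median complete transcript the ratio was 3.21 (2.93 to 3.53), so which gene is higher cannot be read from these counts. The macroH2A genes together stood at 0.0933 of the summed H2A.Z genes per kilobase of exon. H2aj, an H2A variant close to the replication-type protein, had 287 counts (255 to 322), or 157 per kilobase.

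Cenpa, the H3 variant that marks centromeres, had 1607 counts (1529 to 1688) at chromosome 5, 30666777 to 30674830. Per kilobase of its 5860 annotated exonic bases it was at 274, and 0.170 of H3f3b (0.160 to 0.179). Per kilobase of the median complete transcript, which is 906 bases long, it was at 0.830 of H3f3b (0.784 to 0.879). Both scales placed Cenpa below H3f3b, but the size of the gap depended on the length chosen.

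The linker histone variants had the lowest counts of the variant class. H1f0, the H1 of cells that have slowed or stopped dividing, had 138 counts (116 to 163), and H1f10 had 96 (77.8 to 117). H1f10 has 62.0% of its exonic bases under another annotated gene. Summed, these genes had 234 counts against 196 for the 5 replication-type H1 genes, a ratio of 1.19 (0.983 to 1.45), and 1.12 per kilobase. This contrasts with the nucleosome histones. The H3.3 genes had 9932 counts against 102 for 9 listed replication-type H3 genes, a ratio of 97.4 (80.1 to 120). The H2A.Z genes had 10339 against 48 for 9 listed replication-type H2A genes, a ratio of 215 (162 to 292). Per kilobase these ratios were 19.8 and 80.04. The annotated replication-type H3 and H2A genes had medians of 46.2% and 23.2% of their 90-base stretches unique, against 98.9% for H1. The part of this in the contrast was not tested. H2B and H4 had no gene in the variant class.

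**Figure D2:**
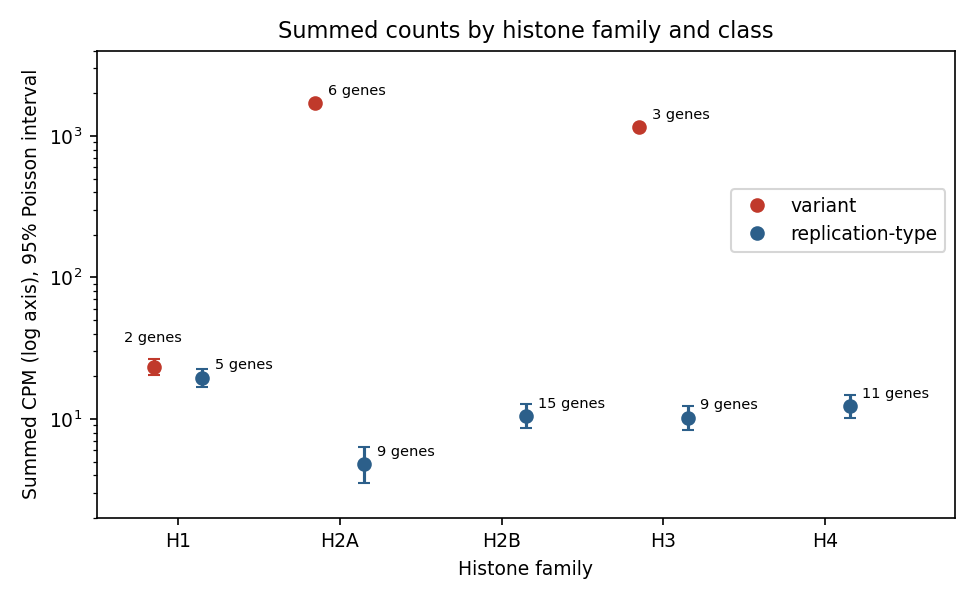
Summed CPM of the listed genes of each histone family by class, on a log axis, with 95% Poisson intervals and the number of genes beside each point. Variants exceed replication-type genes in H2A and H3, whereas in H1 the sums are 234 and 196 counts.

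Among replication-type genes the linker histone H1f2 stood apart by count. It had 118 counts (97.7 to 141; chromosome 13, 23738808 to 23740367), which was 20.6% of the counts of its class, and a CPM of 11.8. H1f3 followed with 31 counts, H1f1 and H1f5 had 16 each and H1f4 had 15. All 5 H1 genes were at CPM 1 or more. H1f3 is annotated with 7425 exonic bases and so was at 4.18 counts per kilobase. H1f2 was 18.1 times H1f3 on that scale (12.1 to 27.9). The H4 gene H4c6 was closer to H1f2 per kilobase, at 58.8 against 75.6, from 23 counts (14.6 to 34.5).

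Replication-type genes of the nucleosome histones ranged from 31 counts down to 1. The highest H3 gene was H3c6 with 31 counts (21.1 to 44.0) and the lowest listed was H3c4 with 2. In H4 the highest was H4c4 with 31, followed by H4c9 with 28 and H4c6 with 23, and the lowest was H4c12 with 1. Per kilobase H4c6 was at 58.8 counts, H4c9 at 38.5 and H4c4 at 27.2. The highest H2B gene was H2bc4 with 25 counts, and H2bu2 and Hist1h2br had 1 each. H2A genes were the sparsest, with 48 counts over 9 listed genes, from H2ac6 with 14 to H2ac10 and H2ac11 with 1 each. The 17 annotated H2A genes also had the lowest median of unique 90-base stretches of any family, at 23.2%, and 8 were not listed. The part of this in their low counts was not tested. H3c3 with 20 counts completes, with H1f1 and H1f5, the 10 highest genes of the class, which held 59.1% of its counts. At the other end, 18 of the 49 listed genes had fewer than 5 counts and 5 had 1 count. H2bc6 and H4c8, with 11 counts each, lay just inside the CPM minimum and H3c1, with 10, just outside it. Neighbours in this order differed by less than their Poisson intervals below H1f2.

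The genes came from 5 places in the genome, and chromosome 13 held nearly all the counts. There the block from 23531050 to 23764406 had 26 of 28 annotated genes listed with 424 counts, and the block from 21715763 to 22043676 had 18 of 23 listed with 130. On chromosome 3 (96219865 to 96270132) 3 of 10 genes were listed with 10 counts in all, led by H4c14 with 5. H4f16 on chromosome 6 had 9 counts, and on chromosome 11 H2bu2 had 1. Over all annotated protein-coding genes 68.7% were listed. Of the 424 counts 118 were from H1f2. Per kilobase of exon the 2 chromosome 13 blocks were in the other order, with medians of 9.89 and 11.5 over listed genes. Their annotated genes had medians of 67.4% and 27.3% of 90-base stretches unique, and those on chromosome 3 had 19.0%. The part of this in the counts was not tested.

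Features of the annotated transcripts were set against the counts of replication-type genes. The 18 genes annotated with 200 or more bases beyond the stem-loop held 318 of the 574 counts, with a median count of 14 among the 15 listed, and 9 were at CPM 1 or more. The 27 genes with a shorter stretch beyond it held 157 counts, with a median of 6 among the 21 listed, and 5 were at CPM 1 or more. The share over all annotated genes without an intron was 16.5%. Per kilobase of exon the medians were in the other order, at 4.88 and 11.3. An intron was annotated in 5 genes, H2bc4, H2bc6, Hist1h2bp, Hist1h2bq and Hist1h2br, with 52 counts in all and medians of 8 counts and 3.47 counts per kilobase. Genes with an annotated poly(A) signal had a median of 6.5 counts among 14 listed, against 7 among 35 listed genes without one. H1f2, the highest gene, was among those with a signal, and H1f3, H3c6 and H4c4, the next by count, were not.

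Near-identical copies and overlapping genes moved with the low replication-type counts, and their part in the result was not tested. Of the 64 annotated genes, 30 had fewer than 50% of their 90-base stretches unique among annotated transcripts. Those 30 held 113 counts, and 12 of them were not listed. The 34 more unique genes held 461 counts, 3 were not listed, and the median of the 31 listed was 10 counts against 4.5 for the 18 listed less unique genes. Per kilobase the medians were 8.64 and 9.59. All 11 variants lay above this limit, so restricting to such genes removed replication-type counts only and could only raise the ratio of the sums, to 62.6 (57.1 to 68.7).

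Of the 15 replication-type genes that were not listed, 7 had all their exonic bases under another annotated gene, namely H2ac18, H2ac19, H2aw, H2bc18, H3c13, H3c14 and H4c2. No replication-type gene covered in this way was listed. The same held for the germ-cell histone genes H2ab3, H2al1m and Hils1, the chaperone gene Asf1a and the testis marker Tnp1. How often genes covered in this way were listed over all protein-coding genes was not computed. Another 5 (H2ac7, H2ac12, H2ac15, H2ac21 and H2ac22) had 24.1% to 68.5% of their exons covered. The other 3 were free of overlap, and of them H4c17 and H3c15 had 11.5% and 38.0% of their 90-base stretches unique, whereas H2bc14 had 91.3%. In the table as a whole 68.7% of annotated protein-coding genes were listed with at least 1 count, against 49 of 64 here. Absence from the list was not read as absence of expression.

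**Figure D3:**
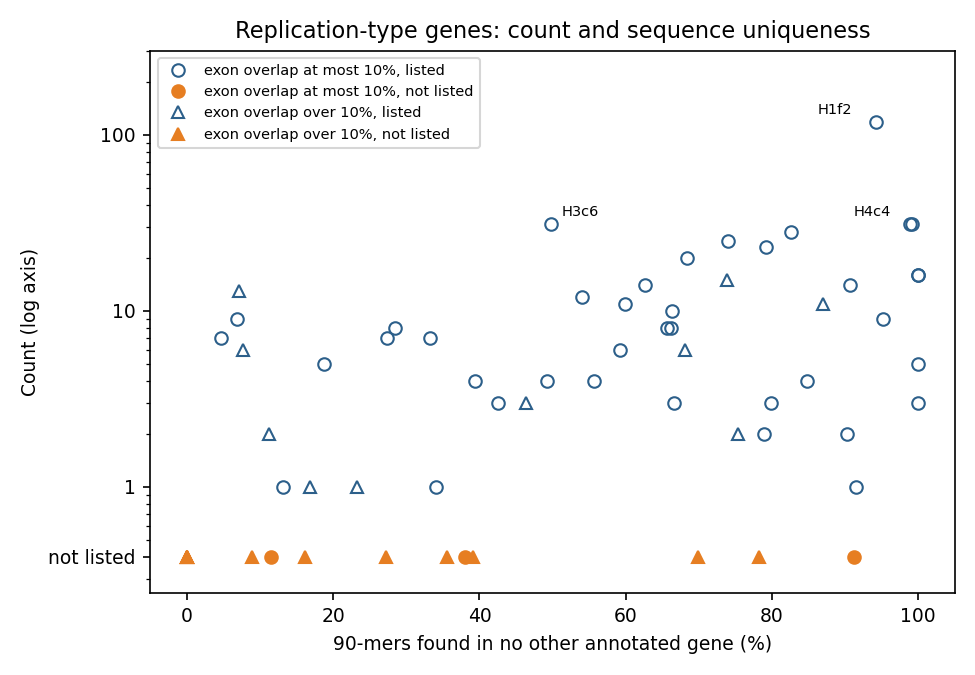
Count (log axis) of each annotated replication-type gene against the share of its 90-base stretches found in no other annotated gene. Orange symbols are the 15 genes not listed and triangles mark genes with over 10% of exonic bases under another gene; 12 of the 15 lie below 50%, and H1f2, at 94.3%, has the highest count.

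Histone genes of germ cells were at the edge of detection. Of 28 annotated genes of this class 3 were listed and none was at CPM 1 or more, against 68.7% and 55.1% of all annotated protein-coding genes. Of the 28, 27 have no intron, and among all genes without an intron 16.5% were at CPM 1 or more. H2bfm had 5 counts, H2bc1, the testis H2B gene, had 4, and H1f8, the oocyte linker histone, had 1. None of the 22 H2A genes of spermatids (the H2al and H2ab names) and testis was listed, and a median of 19.4% of their 90-base stretches was unique, so the limit given for near-identical replication-type genes holds for them too. Markers of testis germ cells were as low, with 4 of 6 listed and 6 counts in all. Of oocyte markers 3 of 6 were listed, led by Zp3 with 50 counts. Of the fibroblast markers 4 of 6 were listed, led by Thy1 with 267 counts and Col1a2 with 66, and Col3a1 and Dcn were not listed. All 6 markers of naive pluripotent cells were present, from Klf4 with 3123 counts to Nanog with 9026.

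Genes that process, carry or deposit histones were present almost without exception. Of 64 such genes 63 were at CPM 1 or more, against 55.1% of all annotated genes, with a median CPM of 80.6. The exception was Asf1a, an H3-H4 chaperone gene that was not listed and is fully covered by another gene. All 22 genes of histone pre-mRNA processing and the histone locus body reached CPM 1, and their median CPM was 77.01. Slbp, which binds the stem-loop, had 925 counts, Lsm10 and Lsm11 of the U7 snRNP had 260 and 286, and Zfp473, another protein of that step, had 107. Npat and Casp8ap2, which organise transcription at the histone clusters, had 743 and 685. The highest were Upf1, a helicase of histone mRNA decay, with 3763 counts, Coil with 2728 and Sympk with 2101, and the lowest was Gon4l with 54, of whose exons 83.1% lie under another gene. The cleavage enzyme gene Cpsf3 had 1610 counts and the 3′ exonuclease gene Eri1 692.

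The list of H3-H4 and H2A-H2B chaperones was the highest of these lists, with a median CPM of 340 over 15 listed genes. Set had 14013 counts, Rbbp4 6048 and Mcm2 5222, and Ipo4, an importin that carries H3 and H4, was lowest with 449. Nasp, which holds the soluble pool of H3 and H4, had 3706 counts, and the chromatin assembly factor genes Chaf1b and Chaf1a had 1783 and 539. Per kilobase of exon the list median was 675 counts, against 8.68 for the listed replication-type histone genes.

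By CPM, the 3 lists of genes that deposit or exchange the variants had the lowest medians of the 5 lists. These were 67.7 for H3.3, 73.7 for H2A.Z and 51.6 for Cenpa, beside 77.01 for pre-mRNA processing. For H3.3 all 6 genes were at CPM 1 or more, led by Atrx with 2623 counts, Ubn1 with 807 and Daxx with 751, and lowest at Hira with 186, of which 85.8% of the exonic bases lie under another gene. For H2A.Z all 12 were, led by Ruvbl2 with 2288, the H2A.Z remover Anp32e with 1772 and Ruvbl1 with 1407. The lowest was Srcap, the ATPase that inserts H2A.Z, with 23 counts, and 95.7% of its exonic bases are under another gene. For Cenpa all 8 were, led by Plk1 with 1531 counts and the Cenpa chaperone gene Hjurp with 975, and lowest at Rsf1 with 109, of which 83.8% of the exonic bases are covered. Medians per kilobase of exon were 73.7 for H3.3 deposition, 213 for H2A.Z exchange and 121 for Cenpa deposition, beside 283 for the median of the 11 variants and 274 for Cenpa itself. On that scale the pre-mRNA processing list, at 150, lay below H2A.Z exchange.

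**Figure D4:**
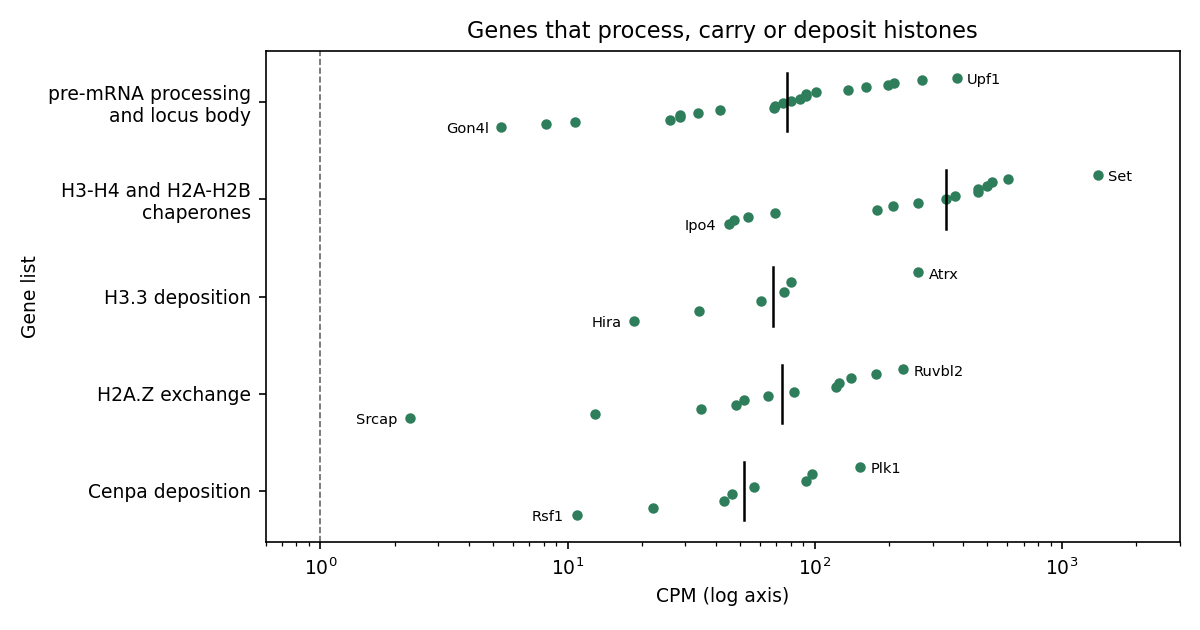
CPM (log axis) of the listed genes of the 5 lists of histone processing, chaperones and deposition, with the list median as a black bar and CPM 1 as a dashed line. The highest and lowest gene of each list is named; every point lies above CPM 1.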

How the data were processed

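The authors deposited raw counts per protein-coding gene symbol in 1 column, from 1 to 117610, which names the line and treatment but no library. It was used as the value of the group of 2 libraries, but whether it pools both was not given in the sources used here. Per the submitters' processing notes, the tools were featureCounts (Subread 1.6.4), HISAT2, Trimmomatic 0.38 and SAMtools, with GRCm38.p6 as the build. The strand setting, the treatment of reads with several alignments and the annotation were not given in the sources used here. Symbols were matched to GENCODE M21 by name (14896) or RefSeq synonym (181), and 50 stayed unmatched.

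Counts were scaled to CPM by the total of 10017978. Intervals are exact (Poisson, Clopper-Pearson, conditional binomial, 95%) and describe counting error alone. They treat reads as independent, and without molecular identifiers 1 molecule can give several reads, so they can be too narrow. For the median difference, the interval that alternatives were held against came from medians of the Poisson limits of single genes and is not exact. With 1 column no test between groups was possible. Exonic overlap is the percentage of exonic bases that also fall within another gene's annotated limits, on either strand. Uniqueness is the share of 90-base stretches absent, on both strands, from the transcripts of other genes among 141767 annotated transcripts. It and the stem-loop search had been planned on the genome and used transcripts. A comparison of protein sequences was replaced by coding sequences.

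Named genes were all variants, the 10 highest replication-type genes, the highest and lowest of each family, listed germ-cell genes, and the 3 highest and the lowest of each list, of which 1 gene is not reported here. Others, such as H2bc14, were named after their values were seen, as were some list members with known roles. Members and lists were chosen with earlier results of these data known. The interval functions were tested on simulated counts with known answers. Python 3.11.15, numpy 2.4.6, scipy 1.17.1 and pandas 2.3.3 were used.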

Additional observations from a re-analysis of the deposited data

How the results depend on the processing

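The variant to replication-type ratio stayed above 1 under every alternative run, and its size did not. From 50.3 it went to 19.0 per kilobase of exon, 5.41 with H2ax among the replication-type genes, 62.6 with unique genes only, 33.4 with genes of at most 10% exonic overlap only, and, as alternatives added after the data were seen, 34.5 without H2az1, 63.3 without H1f2 and 38.1 per kilobase of the median complete transcript. The replication-type share went from 0.00573% to 0.00474% for stem-loop genes, 0.0458% with H2ax, 0.00513% for genes of at most 10% overlap, 0.00460% for unique genes and 0.00455% without H1f2. The variant share went from 0.288% to 0.172% for genes of at most 10% overlap, which leaves out H3f3a and H2ax among others, 0.272% without Cenpa and 0.198% without H2az1. The median difference went from 6.57 to 4.59 per kilobase of exon and 7.65 with a pseudocount of 0.1. Replication-type genes past the minimum numbered 17 at CPM 1, 29 at CPM 0.5, 1 at CPM 5 and 49 with no minimum. The share over all annotated protein-coding genes was 55.1% at CPM 1 and 68.7% at 1 count or more. It was not computed at CPM 0.5 or CPM 5. The other 14 alternatives left their values within the counting interval or within 1.5 times the count. No paired analysis was possible because there was 1 column of counts, and for the same reason no replicate could be left out. At this depth CPM 1 took 11 counts, so differences among most replication-type genes were not detectable.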

Other observations

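Promoters of the histone genes were compared as sequence only. RefSeq promoters (GRCm38.p6, 250 bases before to 50 after the start, 1 per gene) were matched by symbol for 53 replication-type genes and 10 variants. A CCAAT box, searched as CCAAT on either strand, was in 45 of the 53 (84.9%), in 7 of the 10 and in 37.9% of 27025 promoters. It was in all 42 matched H1, H2A, H2B and H3 promoters and in 3 of 11 H4 promoters. TATAAA, on the sense strand, was in 27 of the 53 (50.9%), in 1 variant promoter and in 8.88% of all. The octamer ATTTGCAT, on either strand, was in 6 of 15 H2A and 5 of 12 H2B promoters and in no H1, H3 or H4 promoter of the replication type. It was in 1 of the 10 variant promoters and in 1.75% of all. These matches describe the sequences and say nothing of binding.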
